A study of Mus musculus with 12 samples.

Results

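The genes described here are 9 genes of lymphocyte killing: the pore protein perforin (Prf1), the granule proteases Gzma, Gzmb, Gzmc and Gzmk, the granule membrane protein Nkg7, the cathepsin Ctsw, the cytokine interferon gamma (Ifng) and the death ligand Fasl. They were chosen by name, as 9 of the 32285 genes in the deposited feature lists, and each was read in all 6 libraries. Levels were measured in 3 classes of lymphocyte gated from the UMIs (unique molecular identifiers, 1 per captured RNA molecule) of other genes. CD8 T cells had at least 2 UMIs of Cd3e, Cd3d and Cd3g together and at least 1 of Cd8a and Cd8b1 (998 cells). CD4 T cells had at least 2 UMIs of the same CD3 genes, at least 1 Cd4 UMI and none of Cd8a or Cd8b1 (1195 cells). NK cells had at least 2 UMIs of Ncr1, Klrb1c and Klre1 together and none of the CD3 genes (312 cells). The gates were rebuilt from the counts, and no cell annotation by the authors was used.

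The study followed mouse tumours of 5 lines, named SCC31, SCC32, SCC35, SCC37 and SCC40, in work on the rejection of melanoma. Lines SCC31 with SCC40 are marked as rejected in the authors' hashtag table and the remaining 3 as non-rejected, and the table gives 43 hashed tumours and 10 samples of cells at day 0 with no mouse listed. Tumours were taken at days 6, 10 and 16, and those of the non-rejected lines also at day 20. They were dissociated, tagged with hashtag antibodies, sorted for live cells and sequenced with the 10x Genomics 5′ kit. Each line had a library of its own with tumours 1 and 2 of each day, and a mix library held tumour 3 of SCC31 and SCC40 (days 6 and 10) and of SCC35 (days 6, 10 and 20). The labels name no treatment, genotype or host strain for any group, so the groups are described by line, outcome and day.

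Cytotoxic lymphocytes store perforin and granzymes in secretory granules and release them towards a bound target cell, where perforin opens the membrane and the granzymes cleave proteins inside. Nkg7 lies in the granule membrane and takes part in granule release, and cathepsin W is a papain-like protease of cytotoxic lymphocytes. Fas ligand kills through the death receptor Fas without granules, and interferon gamma acts on macrophages and tumour cells at a distance, where it raises antigen presentation.

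The 4 granzyme genes lie in 2 clusters of neighbours, and within each cluster the neighbours had different patterns over the 3 classes, which is why the windows before their starts are shown. Gzma (chromosome 13, 113093825 to 113100981, minus strand, GRCm38) and Gzmk (113171608 to 113225908, minus strand) are 70626 bases apart in the GENCODE M21 annotation. Gzmb (chromosome 14, 56258838 to 56262260, minus strand) and Gzmc (56231441 to 56234656, minus strand) are 24181 bases apart. The sequences are the 250 bases before each gene's RefSeq start in the build GRCm38.p6, on the gene's own strand, and none of their bases lies in a GENCODE exon. Capitals mark matches, on either strand, to the T-box motif GTGTGA, the RUNX motif TGTGGT, the AP-1 motif TGANTCA or the ETS motif CAGGAAGT, none of which overlap here.
Gzma promoter, chr13:113100982-113101231, minus strand: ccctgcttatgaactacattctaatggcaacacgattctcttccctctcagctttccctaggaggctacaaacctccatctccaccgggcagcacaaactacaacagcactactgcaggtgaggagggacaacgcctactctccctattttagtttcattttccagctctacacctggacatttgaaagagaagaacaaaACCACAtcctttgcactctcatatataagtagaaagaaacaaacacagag
Gzmk promoter, chr13:113180966-113181215, minus strand: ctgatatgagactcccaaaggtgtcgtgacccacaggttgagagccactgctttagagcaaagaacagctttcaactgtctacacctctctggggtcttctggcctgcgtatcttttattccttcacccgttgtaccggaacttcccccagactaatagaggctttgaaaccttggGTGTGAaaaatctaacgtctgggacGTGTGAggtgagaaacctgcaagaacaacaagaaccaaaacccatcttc
Gzmb promoter, chr14:56262335-56262584, minus strand: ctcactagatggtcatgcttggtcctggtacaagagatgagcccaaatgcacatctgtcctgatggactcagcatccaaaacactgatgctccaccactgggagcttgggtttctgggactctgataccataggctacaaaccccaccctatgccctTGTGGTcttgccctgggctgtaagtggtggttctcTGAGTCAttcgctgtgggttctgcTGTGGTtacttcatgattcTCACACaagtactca
Gzmc promoter, chr14:56234658-56234907, minus strand: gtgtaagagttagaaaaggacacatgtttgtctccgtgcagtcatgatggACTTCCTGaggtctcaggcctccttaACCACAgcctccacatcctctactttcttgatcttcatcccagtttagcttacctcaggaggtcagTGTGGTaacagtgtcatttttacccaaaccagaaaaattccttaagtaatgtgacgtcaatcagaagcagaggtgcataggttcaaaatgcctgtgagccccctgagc
The Gzma window holds 1 RUNX match, and the Gzmk window holds 2 T-box matches. The Gzmb window holds 1 T-box, 2 RUNX and 1 AP-1 match, and the Gzmc window 2 RUNX and 1 ETS match. Over 32544 RefSeq promoter windows of the same length, 12.1% held the T-box letters, 14.0% the RUNX letters, 6.73% the AP-1 letters and 2.70% the ETS letters. A match describes the letters and not a binding site.

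Depth and sorting set what could be compared. The libraries held 2366 (SCC31) to 20690 (SCC35) barcodes, and 80.8% to 96.7% of barcodes were assigned to 1 hashtag. Raw UMIs were summed per tumour and class, and sums of at least 10 cells were used: 27 tumours for CD8 T cells (10 to 92 cells, 42752 to 458177 UMIs), 25 for CD4 T cells (10 to 153 cells, 34109 to 665702 UMIs) and 12 for NK cells (10 to 44 cells, 36835 to 207499 UMIs). Levels are counts per 1000000 UMIs of the class in that tumour (CPM), so they are shares of a class's RNA and are not compared between genes. The NK sums came from SCC31 (2 tumours), SCC32 (5) and SCC40 (5). Gated lymphocytes with at least 5 UMIs of myeloid genes were left out as possible doublets (122 CD8 T, 136 CD4 T and 15 NK cells). Of 76648 barcodes, 3464 occurred in more than 1 library, among them 2 of those of gated lymphocytes. The hashtag table gives no pair of mouse and cage more than 1 time within a line, but 13 pairs recur in other lines, and whether such a pair is 1 animal is not stated. P-values below measure the spread between these tumours.

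The gates were checked against marker lists, which also hold the gate genes. The NK marker list of 10 genes summed to 3439 to 7764 CPM in the NK sums, 85.1 to 775 CPM in the CD8 T sums and 0 to 591 CPM in the CD4 T sums. It does not set NK cells apart from macrophages. Pooled cells gated as macrophages by C1qa, C1qb and Csf1r had 5162 CPM of it, against 4978 CPM in pooled NK cells. Most of the macrophage value came from Fcer1g (3141 CPM) and Tyrobp (1995 CPM). The CD8 T list of 8 genes, 6 of which are T cell genes of both classes, summed to 1318 to 5457 CPM in CD8 T cells and 13.8 to 214 CPM in NK cells. Foxp3, the factor that defines regulatory T cells, had a UMI in 91 of 1195 CD4 T cells (7.62%). As a check of the labels, the Y-linked genes gave 106 CPM in SCC31 cells at day 0 (475 counts, exact 95% Poisson interval 96.8 to 116) but 3.84 CPM (6 counts, 1.41 to 8.37) in the ungated cells without Xist or Ptprc UMIs of the mix library tumours tagged as SCC31. In such cells of the SCC31 library's own tumours they gave 20.3 CPM (5 counts, 6.61 to 47.5), also below day 0. All SCC31 sums used here come from the mix library tumours, 1 at day 6 and 1 at day 10, so values without the mix library are given beside the calls they change.

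**Figure D1:**
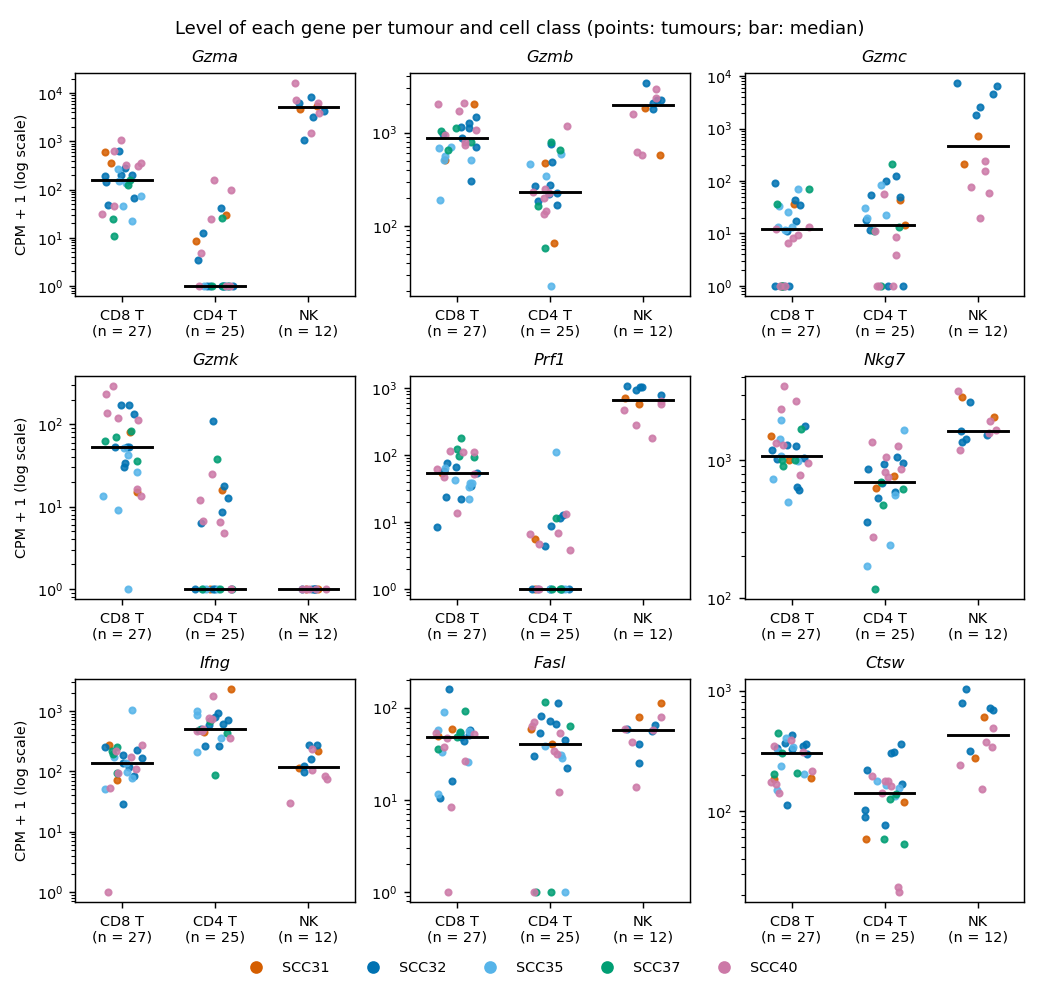
Level of each of the 9 genes in every tumour with at least 10 cells of the class, in CPM + 1 on a log axis. Each point is a tumour coloured by line and each bar is the median over tumours; in the Gzmk panel all 12 NK points lie at 0 CPM, and in the Gzma panel the CD8 T median is 160 CPM against 5128 CPM in NK cells.

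The first question was which class carries each gene within the same tumours. Against CD4 T cells, CD8 T cells had more of Gzma, Gzmk, Prf1, Gzmb, Nkg7 and Ctsw and less Ifng, while Gzmc and Fasl were not called. Against CD8 T cells, NK cells had more of Gzmc, Gzma, Prf1, Ctsw and Nkg7, and none of the members was called lower. A gene is called here at an adjusted p under 0.05 in edgeR's quasi-likelihood test with the tumour as a block and Benjamini-Hochberg adjustment over all genes tested. In CD8 T minus CD4 T cells (23 tumours), 6 of 9 members were called higher, against a background of 5.81% of all 3978 genes tested, and 1 was called lower, against 6.23%. In NK minus CD8 T cells (11 tumours), 5 of 7 members tested were called higher, against 4.25% of 1953 genes, and 0 lower, against 3.58% (387 genes had an unadjusted p under 0.05 by edgeR, and DESeq2 called 6 members). In NK minus CD4 T cells (11 tumours), 6 of 8 members tested were called higher, against 7.90% of 2419 genes, and 1 was called lower, against 8.19%. Gzmk and, against CD8 T cells, Fasl had too few counts to be tested in the NK comparisons. The median log2 difference of members tested was 0.94, 0.89 and 2.03 in the order above, beside 0.02, -0.03 and -0.02 over all genes tested. A member that passes the low count filter through 1 class alone has to differ. The counts of members called and the medians are therefore a description, as are the tests of such members. In the lower class, Gzma, Gzmk and Prf1 had a median of 0 CPM (CD4 T sums) and Gzmc one of 11.0 CPM (CD8 T sums). The 3 comparisons share tumours and are not independent of each other.

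Prf1, the pore protein, ranged from 7.44 to 178 CPM in CD8 T cells (median 52.7), from 0 to 109 CPM in CD4 T cells (median 0) and from 176 to 1056 CPM in NK cells (median 668). The NK and CD8 T ranges met at their ends, and in the 11 tumours with both classes NK cells were higher in all 11. CD8 T cells were above CD4 T cells in 22 of 23 tumours, and 13 of 25 CD4 T sums had no Prf1 count. The log2 difference was 3.21 ± 0.31 (SE) for CD8 T minus CD4 T and 3.69 ± 0.35 for NK minus CD8 T (edgeR quasi-likelihood, adjusted p 6.5e-10 and 9.8e-07). Nkg7 differed less. It ranged from 493 to 3439 CPM in CD8 T cells, from 115 to 1658 CPM in CD4 T cells and from 1183 to 3186 CPM in NK cells, so that all 3 ranges overlapped. Within tumours CD8 T cells were above CD4 T cells in 22 of 23, by 0.94 ± 0.14 on the log2 scale (edgeR quasi-likelihood, adjusted p 1.1e-05), and NK cells were above CD8 T cells in 10 of 11, by 0.62 ± 0.15 (adjusted p 0.016). The NK call for Nkg7 was lost in 5 of 10 other settings (adjusted p up to 0.68), among them without the mix library (0.51, adjusted p 0.18), and also without SCC32 day 10 tumour 2 (adjusted p 0.05) or SCC40 day 6 tumour 1 (0.054).

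Among the granzymes, Gzma, a trypsin-like protease, was the member with the widest step between the 2 T cell classes. Its level was 10.0 to 1081 CPM in CD8 T cells (median 160) and 0 to 155 CPM in CD4 T cells, where 15 of 25 tumours had no count. In NK cells it was 1066 to 16067 CPM (median 5128), and the lowest NK sum, SCC32 day 16 tumour 2, lay just below the highest CD8 T sum. CD8 T cells exceeded CD4 T cells in all 23 tumours, by 4.25 ± 0.38 on the log2 scale, and NK cells exceeded CD8 T cells in all 11, by 3.95 ± 0.27 (edgeR quasi-likelihood, adjusted p 1.2e-10 and 1.6e-08).

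Gzmk, the neighbour of Gzma and also trypsin-like, had a different order. It ranged from 0 to 289 CPM in CD8 T cells (median 52.1) and from 0 to 110 CPM in CD4 T cells (median 0), and CD8 T cells were higher in all 23 tumours (log2 difference 3.23 ± 0.29, edgeR quasi-likelihood, adjusted p 1.6e-10). No Gzmk UMI was found in any of the 12 NK sums. Over the 11 tumours with both classes, NK cells had 0 counts of 857868 UMIs and CD8 T cells 157 of 1931518 (81.3 CPM), so that with 3 counts over the group as the floor the level in NK cells was at least 23.2-fold lower. Over all 312 NK cells, smaller sums included, 2 Gzmk UMIs were counted (1.49 CPM, exact 95% Poisson interval 0.18 to 5.38). The 2 neighbouring genes thus had unlike values in the same NK cells, with Gzma at its highest there.

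Gzmb, which cleaves after aspartate and sets off caspases in the target, was present in every sum of all classes. It ranged from 188 to 2066 CPM in CD8 T cells (median 885), from 21.9 to 1179 CPM in CD4 T cells (median 232) and from 576 to 3364 CPM in NK cells (median 1955). CD8 T cells were above CD4 T cells in 21 of 23 tumours (log2 difference 2.03 ± 0.22, edgeR quasi-likelihood, adjusted p 1.1e-08). NK cells were above CD8 T cells in 8 of 11 tumours, and that difference was not called (0.56 ± 0.23, adjusted p 0.18).

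Gzmc, the neighbour of Gzmb and one of the granzymes that mice have and humans lack, stayed low in both T cell classes, at 0 to 89.2 CPM in CD8 T cells (median 11.0) and 0 to 208 CPM in CD4 T cells (median 13.5). In NK cells it spanned 18.6 to 7265 CPM (median 472), the widest spread of any member in that class by the ratio of highest to lowest. The difference between the T cell classes was not called (-0.45 ± 0.43, edgeR quasi-likelihood, adjusted p 0.61), whereas NK cells were above CD8 T cells in all 11 tumours (5.91 ± 0.55, adjusted p 7.6e-07). Of 845 stretches of 50 bases in the Gzmc transcripts, 35 (4.14%) also occur in 3 other genes, most of them in Gzme, so a small part of its counts could be split with these relatives. Among the other members, Ifng shared 19.9% of its stretches with an overlapping annotated gene that the feature lists do not hold, and the rest shared none.

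Ctsw, the cathepsin, ranged from 112 to 444 CPM in CD8 T cells (median 302), from 20.1 to 359 CPM in CD4 T cells (median 141) and from 151 to 1024 CPM in NK cells (median 429). It was higher in CD8 T than in CD4 T cells in 20 of 23 tumours (0.94 ± 0.15, edgeR quasi-likelihood, adjusted p 2.1e-05) and higher in NK than in CD8 T cells in 11 of 11 (0.89 ± 0.17, adjusted p 0.0018). With stricter gates the CD8 T minus CD4 T difference was 0.38 and no longer called (adjusted p 0.10).

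Ifng ran against the granule genes. It was 86.3 to 2281 CPM in CD4 T cells (median 507), 0 to 1037 CPM in CD8 T cells (median 138) and 29.3 to 275 CPM in NK cells (median 115). CD8 T cells were above CD4 T cells in 1 of 23 tumours, SCC37 day 20 tumour 2, at 195 against 86.3 CPM. The highest CD8 T sum, 1037 CPM in SCC35 day 20 tumour 2, had no CD4 T sum of 10 cells to set beside it. The log2 difference was -1.91 ± 0.22 for CD8 T minus CD4 T and -2.64 ± 0.31 for NK minus CD4 T (edgeR quasi-likelihood, adjusted p 5.0e-08 and 3.4e-06), and NK and CD8 T cells were not called different (0.02 ± 0.33, adjusted p 0.99). Fasl, which needs no granule protease, was 0 to 157 CPM in CD8 T cells, 0 to 113 CPM in CD4 T cells and 12.9 to 111 CPM in NK cells, with overlapping ranges throughout. It was not called in CD8 T minus CD4 T (-0.04 ± 0.21, edgeR quasi-likelihood, adjusted p 0.96) or NK minus CD4 T cells (0.31 ± 0.34, adjusted p 0.64), which at these errors leaves room for differences of either sign.

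The share of cells with a UMI was compared after each cell had been thinned to 1000 UMIs, which left 887 CD8 T, 1116 CD4 T and 296 NK cells (median depth before thinning 2748, 2426.5 and 3209 UMIs; 111, 79 and 16 shallower cells left out). Intervals below are exact binomial 95% intervals and cover counting error only. Gzma was found in 68.9% of NK cells (63.3 to 74.1), 10.5% of CD8 T cells (8.55 to 12.7) and 0.986% of CD4 T cells (0.493 to 1.76). Gzmk was found in 9.47% of CD8 T cells, 0.986% of CD4 T cells and 0 of 296 NK cells (0 to 1.24%), where a floor of 3 cells with a UMI is 1.01%. At 2000 UMIs per cell it was found in 1 of 228 NK cells (0.439%, 0.0111 to 2.42). Ifng was found in 31.6% of CD4 T cells (28.9 to 34.45), 13.2% of CD8 T cells (11.0 to 15.6) and 16.6% of NK cells (12.5 to 21.3), the last 2 with overlapping intervals. Fasl was found in 6.76% of CD8 T, 7.17% of CD4 T and 8.11% of NK cells. As a background, cells in a macrophage gate (4609 cells, median depth 3276) had a UMI of a member in 0.0434% (Gzmk) to 0.629% (Gzmb) of cells. Prf1 in CD4 T cells, at 0.358% (0.0977 to 0.915), had an interval that overlapped that of the gate (0.13%, 0.0478 to 0.283), and is read as background at this depth. At 2000 UMIs per cell it was 1.14% of 701 CD4 T cells (0.494 to 2.24) against 0.114% of 3516 cells in the gate (0.031 to 0.291), and these intervals did not overlap. Without thinning the shares were higher, with Gzma in 78.5% of NK and 17.3% of CD8 T cells and Ifng in 48.5% of CD4 T cells.

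**Figure D2:**
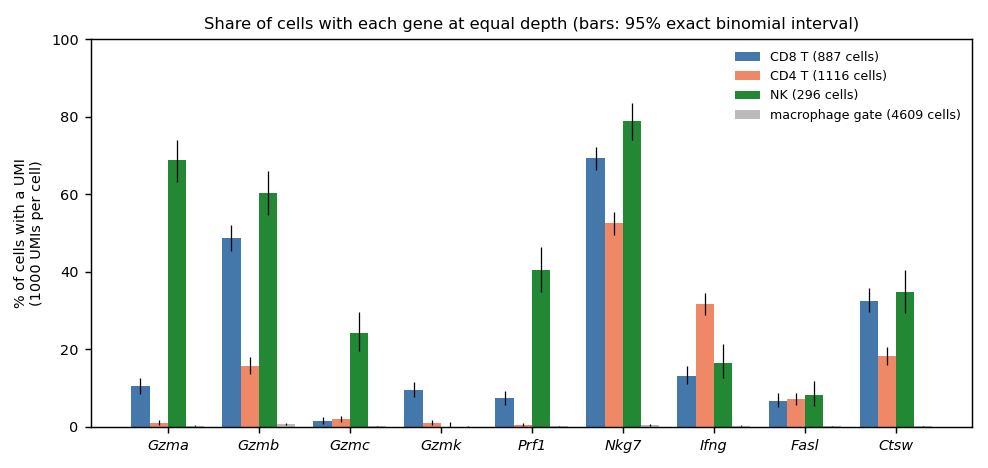
Percentage of cells with at least 1 UMI of each gene after each cell was thinned to 1000 UMIs, in CD8 T, CD4 T and NK cells and in the macrophage gate; bars carry exact binomial 95% intervals. Gzma reaches 68.9% of NK cells, Ifng is highest in CD4 T cells at 31.6%, and the macrophage gate stays at or below 0.629% for every gene.

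Single cells carried few of the genes at that depth. The median number of members with a UMI was 2 per CD8 T cell, 1 per CD4 T cell and 3 per NK cell, none was seen in 12.2%, 24.2% and 4.39% of cells, and 5 or more in 2.25%, 0.538% and 21.6%. In CD8 T cells, Gzmb was found in 69.9% of the 93 cells with Gzma and in 46.3% of the 794 cells without, and Nkg7 in 84.9% and 67.5%. In NK cells, Gzma was found in 55.6% of the 72 cells with Gzmc and in 73.2% of the 224 cells without. These shares pool cells of tumours that differ in both genes and are not tested. Of all UMIs of the 4 granzymes, Gzmb held a median of 76.2% in CD8 T sums (48.4 to 95.9) and 91.5% in CD4 T sums, and Gzma held a median of 66.0% in NK sums (10.9 to 86.9).

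Other genes of the killing machinery were read from lists for processing and release, inhibitors, cytokines, transcription factors and receptors. These lists are described by counts, and no test of a list was made. In CD8 T minus CD4 T cells, 3 of 9 receptor genes tested were higher, namely Klrd1 (2.13 ± 0.20), which pairs with NKG2 chains, Klrk1 (1.66 ± 0.19), which encodes NKG2D, and Slamf7 (0.78 ± 0.21), and 2 were lower, the cytokine receptor genes Il12rb2 (-1.40 ± 0.24) and Il18r1 (-0.64 ± 0.18). Of 10 genes for granule processing, packing and release, Cst7, an inhibitor of granule cathepsins, was higher (0.81 ± 0.16), and Stx11 (-1.18 ± 0.25), Srgn (-1.16 ± 0.11), whose proteoglycan binds granzymes, and Vamp8 (-0.39 ± 0.13) were lower. Of 5 other cytokine and death ligand genes, Csf2 (-4.06 ± 0.32), Lta (-2.58 ± 0.36) and Ltb (-0.39 ± 0.11) were lower, the same direction as Ifng. Csf2 had a median of 0 CPM and Lta of 2.18 CPM in CD8 T sums, so their calls are a description. Of 8 transcription factor genes tested of 9 listed, Bhlhe40 (-0.94 ± 0.09), Tbx21 (-0.76 ± 0.22) and Id2 (-0.55 ± 0.13) were lower. Eomes, on the same list, had too few counts to be tested. It was at 0 to 62.2 CPM in CD8 T sums (median 29.1) and 0 to 3.42 CPM in CD4 T sums (median 0). None of 3 granzyme inhibitor genes was called. The list medians ran from -0.70 (cytokines) to 0.01 (inhibitors), beside 0.02 over all genes.

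In NK minus CD8 T cells, 2 of 3 granzyme inhibitor genes tested were higher, Serpinb6b (1.70 ± 0.21) and Serpinb9 (1.63 ± 0.19), the latter a serpin that blocks granzyme B in the cell's own cytosol. Of 6 receptor genes, Il2rb (1.83 ± 0.22), Klrd1 (1.70 ± 0.19) and Klrk1 (1.49 ± 0.18) were higher. Of 8 transcription factor genes, Irf8 (3.78 ± 0.23), Eomes (1.82 ± 0.37), which is also in the NK marker list, Tbx21 (1.23 ± 0.33) and Id2 (0.91 ± 0.20) were higher. Of 6 processing and release genes, Srgn was higher (0.61 ± 0.17) and Hopx, a homeodomain-only cofactor of transcription that the list also holds, was lower (-0.95 ± 0.26), and the 1 cytokine gene tested, Ltb, was lower (-1.64 ± 0.26). Gzmf, which lies in the same cluster as Gzmc, was the 1 further granzyme tested and was higher (5.17 ± 1.10), although its median over the 12 NK sums was 0 and its highest value 1190 CPM. Its CD8 T sums reached at most 46.8 CPM (median 0). It thus passed the low count filter through NK sums and had to differ, so its call is a description. Against CD4 T cells, NK cells had the largest list differences in Eomes (6.18 ± 0.48) and Csf2 (-5.63 ± 0.49). Eomes reached at most 3.42 CPM in CD4 T sums and Csf2 at most 38.8 CPM in NK sums, each with a median of 0. Both passed the low count filter through the other class and had to differ, so these calls too are a description. All differences named in these 2 paragraphs passed edgeR's quasi-likelihood test over all genes (adjusted p 1.2e-11 to 0.045).

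The genes whose levels ran most like each member over the 27 CD8 T sums were taken among 3952 genes by Spearman's rho, as a description. They were Rac2 (0.86), Hcst (0.85) and Ms4a4b (0.84) for Nkg7, Klrk1 (0.84), Gimap4 (0.84) and Cd52 (0.84) for Ctsw, and Pglyrp1 (0.72), Klrd1 (0.70) and Bcl2a1d (0.69) for Prf1. For the granzymes they were Tlk1 (0.70), Jak1 (0.69) and Gmfg (0.69) for Gzmk, Bcl2a1b (0.69), Ubl5 (0.67) and Lat (0.66) for Gzmb, Rpl4 (0.66) and Zbtb8os (0.59) for Gzmc, and Cytip (0.62), Abracl (0.62) and Myl6 (0.57) for Gzma. For Fasl they were Sipa1 (0.70), Ttc39c (0.66) and Fam111a (0.65), and for Ifng Dhx36 (0.61), Mrps36 (0.61) and Rwdd1 (0.61). Between members rho ran from -0.23 (Gzmb and Gzmc) to 0.61 (Gzmk and Prf1). The 27 points share lines, days and libraries and differ in depth.

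**Figure D3:**
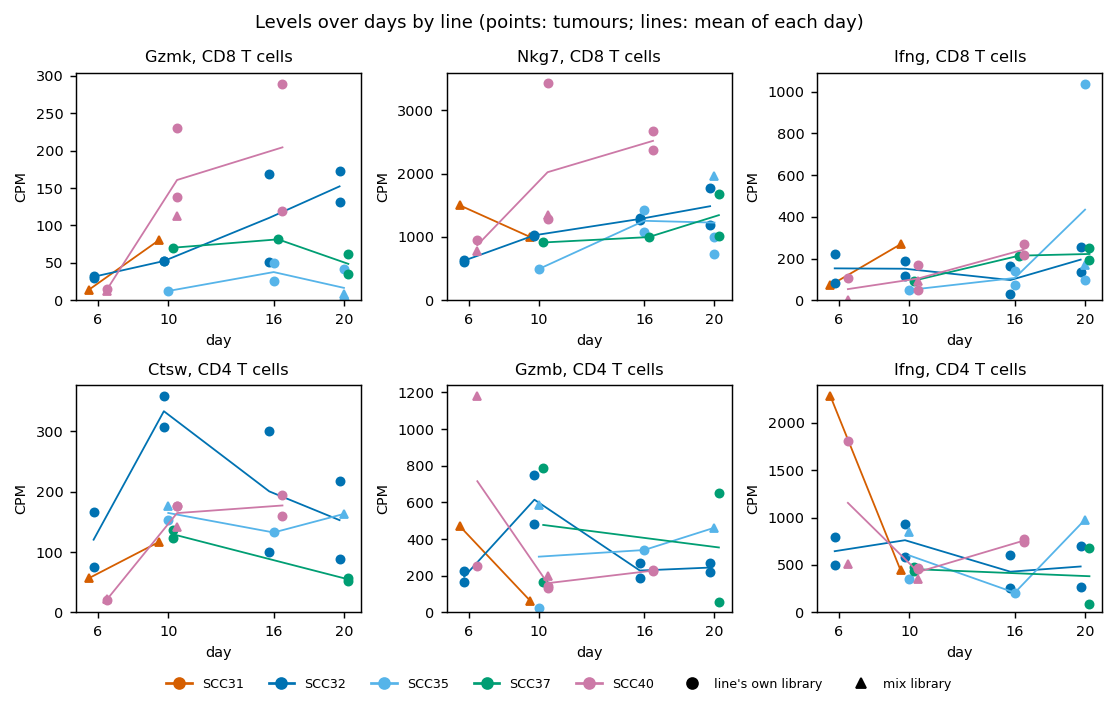
Level in CPM by day for Gzmk, Nkg7 and Ifng in CD8 T cells and for Ctsw, Gzmb and Ifng in CD4 T cells; points are tumours, coloured by line and shaped by library, and lines join the means of each day. In the Gzmk panel the 5 tumours of day 6 lie between 12.6 and 32.9 CPM, and in the Ctsw panel those of day 6 lie between 20.1 and 166 CPM.

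The second question was how the levels differed over the days of sampling. Day 6 had CD8 T sums in SCC31 (1 tumour), SCC32 (2) and SCC40 (2), so changes from day 6 rest on these lines, with the last day being day 10 in SCC31, day 20 in SCC32 and day 16 in SCC40. Gzmk in CD8 T cells was 14.3 CPM in the SCC31 tumour, 29.8 and 32.9 CPM in SCC32 and 15.2 and 12.6 CPM in SCC40 at day 6. At the last day it was 80.8 CPM in SCC31, 131 and 173 CPM in SCC32 and 120 and 289 CPM in SCC40. All 5 late tumours lay above all 5 early ones. The log2 change, averaged over the 3 lines, was 2.87 ± 0.58 (edgeR quasi-likelihood, adjusted p 0.031), and Gzmk was the 1 member of 9 called, where 0.329% of 3950 genes were called. Each day 6 tumour held 1 to 4 Gzmk counts. The call was lost in 6 of 10 other settings (adjusted p 0.052 to 0.35), among them DESeq2, and when SCC32 day 6 tumour 1 or 2, SCC32 day 20 tumour 2, SCC40 day 6 tumour 1 or 3 or SCC40 day 16 tumour 2 was left out (adjusted p 0.061 to 0.16), while the change stayed between 2.52 and 3.10 in all of the 10 settings.

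The median depth per CD8 T cell moved with the day in SCC32, from 6992.5 and 4601.5 UMIs at day 6 to 2847 and 1708 at day 20, and less in SCC40 (3741 and 2360.5 at day 6, 2748 and 2878 at day 16). The tumour and stroma marker list of 7 genes was also lower late there, at 216 and 238 CPM against 1831 and 2400 CPM at day 6 in SCC32, and was 45.6 and 50.6 CPM at day 6 and 54.5 and 114 CPM at day 16 in SCC40. The dendritic list of 6 genes was 227 and 608 CPM at day 6 and 29.3 and 39.9 CPM at day 16 in SCC40. The CD8 T list was higher late, at 3445 and 5457 against 1511 and 1841 CPM in SCC32 and at 4458 and 4683 against 1706 and 2112 CPM in SCC40, and lower late in SCC31, at 2826 against 3955 CPM. The part of depth or of these lists in the Gzmk change was not tested. With cells over 10000 UMIs left out, which left 3 tumours against 2, the Gzmk difference was 3.002 (edgeR quasi-likelihood, adjusted p 0.35).

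The other members in CD8 T cells were not called between day 6 and the last day, although without the mix library, and so without SCC31, Nkg7 was (1.32, edgeR quasi-likelihood, adjusted p 0.028). Their log2 changes were 1.49 ± 0.65 for Ifng, 1.16 ± 0.61 for Fasl, 1.10 ± 0.49 for Prf1, 0.75 ± 0.32 for Nkg7, 0.65 ± 0.33 for Ctsw, 0.44 ± 0.66 for Gzma, 0.07 ± 0.32 for Gzmb and 3.39 ± 1.81 for the sparse Gzmc (edgeR quasi-likelihood, adjusted p 0.38 to 0.98). The median over the 9 members was 1.10, beside 0.10 over all genes. From day 6 to day 10, none of the members and none of 3950 genes was called (329 genes at an unadjusted p under 0.05 by edgeR, and 0 members by DESeq2), with Gzmk at 2.22 ± 0.63 (adjusted p 0.35). Within single lines no member was called either, where 0.405% (SCC32) and 0.0253% (SCC40) of genes were. Gzmk stood at 2.26 ± 0.73 in SCC32 and 3.89 ± 0.89 in SCC40 (edgeR quasi-likelihood, adjusted p 0.15 and 0.11).

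Since few tumours gave enough cells at day 6, a linear trend within lines over all 27 CD8 T sums was added, a choice made with the data in view. Nkg7 rose by 0.89 ± 0.23 log2 per 10 days and was the 1 of 8 members tested that was called (edgeR quasi-likelihood, adjusted p 0.035), where 1.64% of 3119 genes were called. It was 610 and 641 CPM at day 6 and 1193 and 1777 CPM at day 20 in SCC32, 957 and 784 CPM at day 6 and 2367 and 2669 CPM at day 16 in SCC40, and 493 CPM at day 10 against 727 to 1959 CPM at day 20 in SCC35. In SCC31 it was 1499 CPM at day 6 and 1000 CPM at day 10, the other way. The CD8 T marker list given above for Gzmk had the same direction as Nkg7 in each of these lines, SCC31 included, and its part in the trend was not tested. The call was lost in 6 of 12 other settings (adjusted p up to 0.92), among them without the mix library (0.75, adjusted p 0.079). It was also lost without any 1 of 10 tumours, namely SCC32 day 6 tumour 1 or 2, day 16 tumour 1 or day 20 tumour 2, SCC35 day 10 tumour 1, SCC37 day 20 tumour 1, SCC40 day 6 tumour 1 or 3 and SCC40 day 16 tumour 1 or 2 (edgeR quasi-likelihood, adjusted p 0.053 to 0.12). Gzmk missed the threshold (1.41 ± 0.39, adjusted p 0.056), as did Ifng (1.08 ± 0.44, adjusted p 0.19). SCC35 and SCC37 had no CD8 T sum at day 6, and their Gzmk values at day 20, 0 to 41.3 and 34.99 to 62.2 CPM, lay below the 131 and 173 CPM of SCC32 on that day.

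In CD4 T cells the member called from day 6 to day 10 was Ctsw. At day 6 it was 57.0 CPM in SCC31, 74.5 and 166 CPM in SCC32 and 20.1 and 22.04 CPM in SCC40, and at day 10 it was 117 CPM in SCC31, 359 and 307 CPM in SCC32 and 176, 176 and 141 CPM in SCC40. Within each of the 3 lines the day 10 tumours lay above the day 6 tumours. In the SCC40 sums the CD4 T list was also higher at day 10 (2283 to 2603 against 1212 and 1460 CPM), as were the CD8 T list with its shared T cell genes (2888 to 3527 against 904 and 1440 CPM) and the macrophage list of 8 genes (64.4 to 138 against 10.1 and 11.02 CPM), while the tumour and stroma list was lower (91.9 to 146 against 242 and 372 CPM). In SCC31 the CD4 T list was lower at day 10 (1504 against 2923 CPM). The part of these lists in the Ctsw change was not tested. The log2 change was 1.88 ± 0.36 (edgeR quasi-likelihood, adjusted p 0.012), and Ctsw was the 1 of 9 members called, where 1.30% of 3858 genes were called. It was lost with cells over 10000 UMIs left out (1.31, adjusted p 0.23) and without SCC32 day 6 tumour 1 (1.65, adjusted p 0.055). From day 6 to the last day the change was 1.59 ± 0.38 and was not called (adjusted p 0.061), and no other member was, where 0.285% of genes were. Within SCC40 alone, Ctsw rose by 3.03 ± 0.63 to 159 and 195 CPM at day 16 (adjusted p 0.017, where 0.778% of genes were called), on 2 counts in each day 6 tumour. That call was lost in 4 of 9 other settings (adjusted p up to 0.36), among them without the mix library (3.10, adjusted p 0.11), and without SCC40 day 6 tumour 1 or 3 or day 16 tumour 2 (edgeR quasi-likelihood, adjusted p 0.068 to 0.13). Within SCC32 no member was called, where 0.0259% of genes were. Ctsw there was 99.9 and 301 CPM at day 16 and 218 and 88.0 CPM at day 20, which overlapped day 6.

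Ifng in CD4 T cells was 2281 CPM at day 6 in SCC31, 500 and 790 CPM in SCC32 and 1802 and 507 CPM in SCC40, against 445, 588 to 935 and 350 to 470 CPM at day 10. The groups overlapped in SCC32, and the change over the 3 lines was not called (-1.16 ± 0.34, edgeR quasi-likelihood, adjusted p 0.080). It was called in 3 other settings, for example with cells that had a Foxp3 UMI left out (-1.28, adjusted p 0.013), and turned to 0.11 with cells over 10000 UMIs left out (adjusted p 0.93, 3 tumours against 3). Of the lists, 2 genes were called from day 6 to day 10 in CD4 T cells, Lta (-3.05 ± 0.56, adjusted p 0.012) and Tbx21 (3.26 ± 0.82, adjusted p 0.045), the latter encoding T-bet. Median depth per CD4 T cell also moved with the day, from 3927 and 3262 to 1888 and 2033.5 UMIs in SCC32 and from 8382.5 and 3890.5 to 1827 to 2060.5 in SCC40, and its part in these changes was not tested. Over all 25 CD4 T sums, no member was called for a trend within lines, where 0.0695% of genes were. The difference in trend between CD8 T and CD4 T cells, also added after the data had been seen, was called for none of the 9 members, where 0.0251% of genes were, with Ifng at 1.16 ± 0.40 and Nkg7 at 0.64 ± 0.27 per 10 days (edgeR quasi-likelihood, adjusted p 0.27 and 0.38).

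In NK cells no member was called over time (0 of 1826 genes from day 6 to day 10 or to the last day and 0 of 1337 for the trend by edgeR, with 159, 69 and 56 at an unadjusted p under 0.05, and 0 members by DESeq2), with 12 sums in 9 line and day groups and 3 residual degrees of freedom. Gzmb stood at -1.37 ± 0.25 from day 6 to day 10 (adjusted p 0.12). Its values at day 6 were 1841 CPM in SCC31, 3364 in SCC32 and 2339, 2953 and 1596 in SCC40, and at day 10 they were 581, 1809 and 2253, and 576. The day 10 value was the lower one in each line. Leaving out cells over 10000 UMIs turned this difference into a call, as did the absence of a low count filter and a stricter hashtag ratio, while DESeq2 gave -1.40 (adjusted p 0.77). Without the mix library Gzmc was called to the last day (1.95, edgeR quasi-likelihood, adjusted p 0.039) and for the trend (1.49 per 10 days, adjusted p 0.024).

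The third question was whether tumours of rejected and non-rejected lines differed. In CD8 T cells no member was called at day 6, where 0.759% of 3950 genes were and where SCC32 was the 1 non-rejected line with sums. None was called at day 10 either, where 0 genes were (264 at an unadjusted p under 0.05 by edgeR, and 0 members by DESeq2). At day 10, Gzmk in CD8 T cells was 80.8 CPM in SCC31 and 113 to 231 CPM in SCC40, against 52.1 and 52.7 CPM in SCC32, 12.3 CPM in SCC35 and 70.2 CPM in SCC37. The rejected lines lay above the others, with a difference of line means of 1.603 on the log2(CPM + 1) scale (two-sided exact permutation test over 5 lines, p = 0.2, the smallest it can give, and 0.9 adjusted over the 9 members). The SCC35 and SCC37 values rest on 1 and 3 counts, in 12 cells each. Line means also did not overlap for Ifng in CD4 T cells at day 10 (-0.39). The same held for Gzma (1.46) and Nkg7 (0.72) in NK cells at day 6, with at least 5 cells. How often lines part in this way over all genes was not counted. Any such parting of 5 lines has p = 0.2 by the two-sided exact permutation test, so these are values and not results by outcome. In the edgeR fit, with tumours as replicates, Gzmk was at 1.66 ± 0.63 and Nkg7 at 0.94 ± 0.38 (quasi-likelihood, adjusted p 0.68 each). Without the mix library, and so without SCC31, Nkg7 was called (1.70, adjusted p 0.023). No member was called for a difference by outcome in the change from day 6 to day 10 in CD8 T cells, or for a difference among the 5 lines at day 10 (0 of 3950 genes called in each, 305 at an unadjusted p under 0.05 in each by edgeR, 0 members by DESeq2). Without the mix library Nkg7 was called for the difference among the remaining 4 lines (edgeR quasi-likelihood, adjusted p 0.032).

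In CD4 T cells no member was called by outcome at day 6, where 3.91% of 3858 genes were, or at day 10, where 0.285% were. Gzmb at day 10 was 64.6 CPM in SCC31 and 132 to 201 CPM in SCC40, against 482 and 748 CPM in SCC32, 21.9 and 586 CPM in SCC35 and 164 and 790 CPM in SCC37. Values of the SCC35 and SCC37 tumours overlapped those of the rejected lines, and the difference was -1.99 ± 0.54 (edgeR quasi-likelihood, adjusted p 0.091). It was called in 5 of 13 other settings, among them DESeq2 (adjusted p 0.046) and the replicate block (0.011). It was -0.59 without cells that had a Foxp3 UMI, -0.31 without the mix library and -0.67 without cells over 10000 UMIs (adjusted p 0.74 to 0.91). With the line as the unit the two-sided exact permutation test gave p = 0.4.

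**Figure D4:**
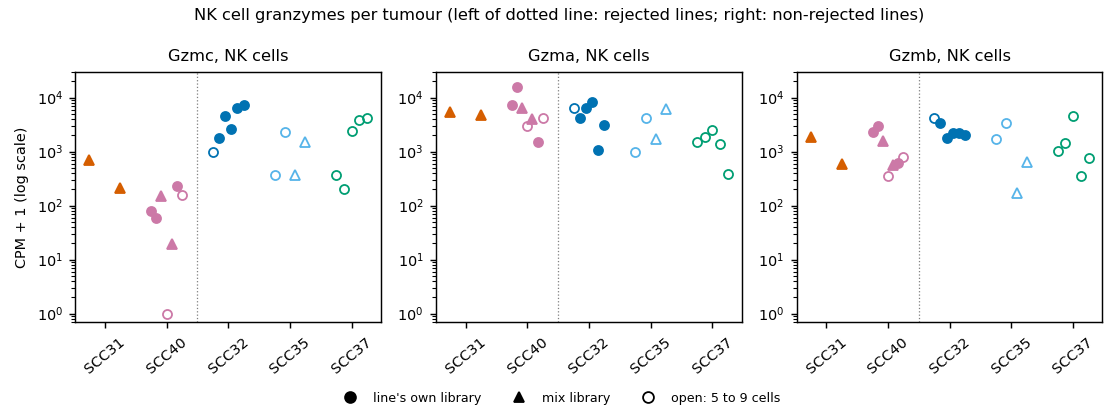
Level of Gzmc, Gzma and Gzmb in NK cells per tumour in CPM + 1 on a log axis, by line, with rejected lines to the left of the dotted line and non-rejected lines to the right; filled points are sums of at least 10 cells and open points sums of 5 to 9 cells. Gzmc lies between 0 and 235 CPM in SCC40 and between 985 and 7265 CPM in SCC32, with the open points of SCC35 and SCC37 between 201 and 4259 CPM.

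NK cells differed most between lines in Gzmc. With at least 10 cells it was 708 and 213 CPM in SCC31, 18.6 to 235 CPM in the 5 SCC40 sums and 1810 to 7265 CPM in the 5 SCC32 sums. The SCC32 sums lay above all others, while the SCC31 value of 213 CPM lay within the SCC40 range. The outcome contrast was -2.69 ± 0.42 at day 6 (4 rejected tumours against 1 of SCC32) and -5.58 ± 0.53 at day 10 (2 against 2), and Gzmc was the member called at both days (edgeR quasi-likelihood, adjusted p 0.030 and 0.00045), where 0.110% and 0.0548% of 1826 genes were called. The single SCC32 sum of day 6 has no spread of its own and is assumed to vary like the other line and day groups. At day 10 the rejected tumours were both in the mix library and the others both in the SCC32 library, so outcome, line and library cannot be told apart, and no value without the mix library could be had. With sums of at least 5 cells, an alternative added after the data had been seen, SCC35 gave 368 to 2346 CPM (4 tumours) and SCC37 201 to 4259 CPM (5 tumours), and the 2 SCC31 values fell within the SCC37 range. Of these smaller sums, those of day 10 gave 1479 CPM in SCC35 (mix library, 6 cells) and 2399 CPM in SCC37 (own library, 7 cells). SCC40 tumour 1 (own library, 6 cells) gave 0 CPM. The part of the library was not tested. The day 6 contrast then was -1.44 (edgeR quasi-likelihood, adjusted p 0.66), and the difference of line means at day 6 was -1.33 (two-sided exact permutation test over 5 lines, p = 0.6). The day 6 call was also lost without SCC32 day 10 tumour 1 or 2, SCC32 day 16 tumour 2 or SCC32 day 20 tumour 1 (adjusted p 0.058 to 0.075).

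Within the granzyme UMIs of NK cells, Gzmc took 19.2% to 66.4% in SCC32, 3.83% and 8.81% in SCC31 and 0.305% to 9.92% in SCC40. Gzma took 63.6% to 86.9% in SCC40 and 10.9% to 63.5% in SCC32. The lowest of these was SCC32 day 16 tumour 2, with 99 Gzma counts beside 207 of Gzmb and 605 of Gzmc. The NK marker list summed to 3439 to 7764 CPM over these same 12 sums, but it holds the gate genes, so part of this sum was required by the gate. Prf1 in NK cells was 776 to 1056 CPM in SCC32 with at least 5 cells and 176 to 633 CPM in SCC40, again without overlap, and its outcome contrasts were not called (-0.51 ± 0.42 at day 6 and -1.18 ± 0.39 at day 10, edgeR quasi-likelihood, adjusted p 0.99992 and 0.76).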

How the data were processed

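The authors deposited, for 6 libraries, matrices of raw UMI counts per gene and barcode and of hashtag counts, and a table that ties each hashtag to a line, day, tumour and outcome. Cell Ranger 6.0.0 and the build mm10 are named in the submitters' processing notes. Cells with at least 300 genes and at most 15% mitochondrial counts were kept, and were assigned to a hashtag with at least 10 counts and at least 2 times those of the next, so that barcodes with 2 hashtags were dropped. There was no upper limit on UMIs.

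Counts were summed per tumour and class (at least 10 cells) and tested with edgeR 4.0.16 in R 4.3.3 (quasi-likelihood, TMM scaling, low count filter), with Benjamini-Hochberg adjustment over all genes of a comparison and a threshold of 0.05. Standard errors are the log2 change over the root of the F statistic. Class comparisons had the tumour as a block, and the others 1 mean per line and day, with 12 residual degrees of freedom in CD8 T, 11 in CD4 T and 3 in NK cells. On data simulated with 4-fold changes, 100% of 123 changed genes tested were recovered for CD8 T minus CD4 T (9330 genes, 6 false calls) and 77.7% of 139 for CD8 T cells from day 6 to the last day (7292 genes, 7 false calls). The simulation gave each gene a pooled mean and the same fixed spread, with no line or tumour effects. These shares check the code and are not the power of the real comparisons. DESeq2 1.42.0 was an alternative. Other steps used Python 3.11.15, scipy 1.17.1 and matplotlib 3.10.9.

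All 9 members are named in each comparison. From the lists, at most the 4 called genes with the largest change per direction are named, and for likeness the 3 genes of highest rho, of which 1 is not reported here. The members and lists were chosen with earlier results of these data known. Promoter windows matched 8 of the 9 members by symbol. Intervals and floors cover counting error only.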

Additional observations from a re-analysis of the deposited data

Results flagged for a closer look

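The SCC32 cells of day 0, for which no mouse is listed and which enter no comparison, held UMIs of 4 members above the upper limits of the other lines' day 0 cells. Gzma was at 5.08 CPM, Nkg7 at 5.13 CPM, Gzmb at 4.03 CPM and Ctsw at 2.02 CPM over 2280 cells and 22826636 UMIs. Of these cells, 17 (0.746%) fell in the lymphocyte gates, and no day 0 cell of another line did.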

How the results depend on the processing

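The 3 class comparisons (7, 5 and 7 members called) stayed within 1.5 times of these counts in all alternatives run, and leaving out 1 tumour gave 7 to 7, 4 to 6 and 7 to 7. Over the values of the members, apart from the runs that left out 1 tumour, 1856 alternatives kept the side of the threshold, 62 passed it newly and 25 lost it. No value called in either setting changed sign. Values called in neither could change sign, as Ifng in CD4 T cells from day 6 to day 10 did.

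Counts of members called were less stable over time and by outcome, and the cause was not tested. Leaving out the low count filter also changes how many genes are tested. Without that filter the counts were 2 for the difference in trend between CD8 T and CD4 T cells, 1 for CD8 T cells from day 6 to day 10, 3 to the last day, 7 within single lines, 2 for lines at day 10 and 4 for the trend. In CD4 T cells they were 3 to day 10, 3 to the last day, 3 within lines, 3 by outcome and 2 for the trend, and in NK cells 1 to day 10, 2 to the last day and 2 for the trend. Genes called rose with them, from 13 to 110 for CD8 T cells from day 6 to the last day. The share of all genes called is not given beside the other counts here and below. Those counts describe stability and are not results about the members.

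For CD8 T cells from day 6 to the last day (1 member called), the count was 0 with RLE size factors, DESeq2, a hashtag ratio of 4, myeloid-marked cells kept or cells over 10000 UMIs left out, and 2 without the mix library. RLE factors moved the median of all genes there from 0.10 to -0.01. The CD8 T trend (1) went to 0 with at least 20 cells, at least 5 cells, a hashtag ratio of 4, stricter gates, no mix library or no cells over 10000 UMIs. Without the mix library the CD8 T outcome count and that for lines at day 10 went from 0 to 1. For CD4 T cells to day 10 (1), the count was 2 with a hashtag ratio of 4 or without Foxp3 cells and 0 without cells over 10000 UMIs. To the last day (0) it was 1 with myeloid-marked cells kept or at least 5 cells, and within lines (1) it was 0 with the stricter cell filter or without the mix library. By outcome (0) it was 1 with DESeq2, 2 with a hashtag ratio of 4 and 1 without cells over 10000 UMIs. In NK cells to day 10 (0) it was 1 with a hashtag ratio of 4 and 2 without cells over 10000 UMIs, and to the last day (0) 2, 3 and, without the mix library, 1. The NK outcome count (2) was 1 with myeloid-marked cells kept, 6 without cells over 10000 UMIs and 1 with at least 5 cells, and the NK trend (0) was 1 without the mix library.

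Leaving out 1 tumour gave 0 to 2 members for CD8 T cells to the last day, 0 to 2 for their trend, 0 to 2 for CD4 T cells to day 10, 0 to 1 to the last day, 0 to 1 within lines and 0 to 2 by outcome. In NK cells it gave 0 to 1 to day 10, 0 to 1 to the last day and 1 to 3 by outcome, and it gave 0 to 0 for the other comparisons.

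Tumour numbers did not pair the samples: deviations of same-numbered sums had a median correlation of -0.022 in CD8 T and -0.00664 in CD4 T cells, beside 0.0161 and 0.00255 for other numbers. With the tumour number as a replicate block, the count was 0 for CD8 T cells to the last day, 0 for CD4 T cells within lines and 1 for CD4 T cells by outcome. Few cells per sum limit the sparse members, and Gzma, Gzmk and Prf1 in CD4 T cells had no usable error over time.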
